A study of Mus musculus with 9 samples.

Results

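The 6 genes described here are the copies of Zscan4 listed from Zscan4a to Zscan4f, a family of near-identical zinc finger genes on mouse chromosome 7. They were chosen by symbol in a table of 24454 genes, where 5 of the 6 have a row. Zscan4e has no row under that name and is not analysed here. All 5 copies passed the filter on low counts and were among the 16964 genes tested. RNA was sequenced from ICR mouse embryos, an outbred stock, that had been cultured from the zygote to the 2-cell stage, with 3 embryos pooled in each library. The control group, the embryos loaded with high glucose and the embryos loaded with high glucose that also received rat serum carrying ZGW, a drug the labels give only by these letters, have 3 libraries each. The last group is called ZGW serum below. The labels give no glucose dose and do not say whether the other embryos received drug-free rat serum. Nor do they say from how many matings the embryos came, so p-values measure the spread between these pools.

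Zscan4 genes encode proteins with a SCAN domain, which mediates protein pairing, and zinc fingers that bind DNA. They are transcribed in a burst as the embryo's own genome switches on, in 2-cell embryos, and in a small, changing fraction of embryonic stem cells, where they are tied to telomere lengthening. DUX, DPPA2 and DPPA4 are known to switch the genes on, and chromatin repressors such as TRIM28 keep them off in later cells. Zscan4d has been described as the copy used mainly in embryos and Zscan4c as that used in stem cells.

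The copies lie in an array of 820 kilobases, between bases 10794242 and 11614112 of chromosome 7 in GENCODE M21, on GRCm38, the assembly also called mm10 that the submitters named. Zscan4a is at chr7:10794242-10799057 on the minus strand, Zscan4b at chr7:10900740-10905050 on the minus strand, and Zscan4c at chr7:11005745-11010547 on the plus strand. Zscan4d is at chr7:11161374-11166159 on the minus strand, Zscan4e at chr7:11306378-11310682 on the minus strand, and Zscan4f at chr7:11397915-11402318 on the plus strand. The array also holds Zscan4-ps1, Zscan4-ps2 and Zscan4-ps3, none of which has a row. Each of these is annotated as protein coding, with 506 codons. Zscan4a is annotated as an unprocessed pseudogene. Zscan4c, Zscan4d and Zscan4f have coding sequences of 506 codons, and Zscan4b and Zscan4e of 505.

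**Figure D1:**
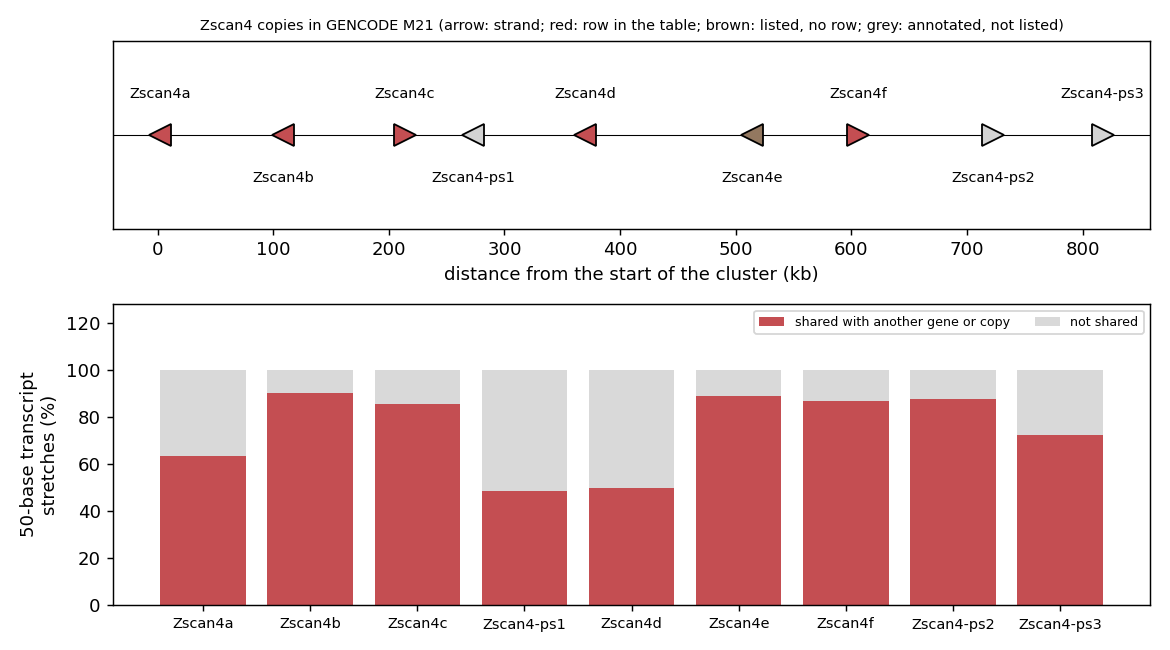
Upper panel: the 9 annotated Zscan4 copies by distance in kilobases from the start of the cluster, with the arrow giving the strand; lower panel: percent of each copy's 50-base transcript stretches that also occur in another copy or gene. Zscan4d is the least shared of the 5 copies with counts (49.6%) and Zscan4b the most shared (90.1%).

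The transcripts of these copies share most of their sequence. Identity between the longest transcripts of 2 listed copies ran from 96.6% for Zscan4b with Zscan4d to 99.7% for Zscan4b with Zscan4e. Of all stretches of 50 bases, the share that also occurs in another gene's transcripts was 49.6% for Zscan4d, 63.6% for Zscan4a, 85.5% for Zscan4c, 86.8% for Zscan4f and 90.1% for Zscan4b. Zscan4b shared 85.3% of its stretches with Zscan4e, so reads from Zscan4e can have been counted as Zscan4b. Zscan4f shared 77.1% and Zscan4c 71.4% of their stretches with Zscan4-ps2, which also has no row. Reads from Zscan4-ps2 can likewise have been counted as Zscan4f or Zscan4c. How reads that match several copies were counted is not given in the sources used here. The globin genes Hba-a1 and Hba-a2, with 72.3% and 89.3% of their stretches in other genes, had identical mean CPM in each group. A read can therefore have been counted for several genes. Counts of single copies are uncertain, and the sum of the 5 copies, given beside them, may hold a read more than once. The annotation is of the C57BL/6J genome, and the number of copies in ICR mice was not analysed here.

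Promoters from RefSeq (GRCm38.p6) around the annotated start were found for 4 of the 6 copies. They are shown for Zscan4b, Zscan4d and Zscan4f because the copies varied together across libraries, as described below. Zscan4b is the copy with the lowest counts (chr7:10905001-10905300, minus strand), Zscan4d the one with the most distinct transcript (chr7:11166099-11166398, minus strand) and Zscan4f the one with the highest counts (chr7:11397665-11397964, plus strand). Each is written 5′ to 3′ on the gene's own strand. Capitals mark TATAAAA, the core promoter element bound by TBP, and GATTCAA, letters that form part of the site bound by DUX.
Zscan4b: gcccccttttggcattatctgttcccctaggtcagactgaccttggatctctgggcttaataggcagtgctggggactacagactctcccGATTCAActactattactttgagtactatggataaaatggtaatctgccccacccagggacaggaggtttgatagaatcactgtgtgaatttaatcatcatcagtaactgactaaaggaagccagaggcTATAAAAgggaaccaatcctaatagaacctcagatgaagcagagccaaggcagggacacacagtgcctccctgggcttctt
Zscan4d: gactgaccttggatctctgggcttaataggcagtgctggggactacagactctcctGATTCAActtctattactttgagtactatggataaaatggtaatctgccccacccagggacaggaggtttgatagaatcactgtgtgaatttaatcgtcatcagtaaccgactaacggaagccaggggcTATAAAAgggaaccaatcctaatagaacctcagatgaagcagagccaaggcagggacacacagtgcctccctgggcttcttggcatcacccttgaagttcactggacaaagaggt
Zscan4f: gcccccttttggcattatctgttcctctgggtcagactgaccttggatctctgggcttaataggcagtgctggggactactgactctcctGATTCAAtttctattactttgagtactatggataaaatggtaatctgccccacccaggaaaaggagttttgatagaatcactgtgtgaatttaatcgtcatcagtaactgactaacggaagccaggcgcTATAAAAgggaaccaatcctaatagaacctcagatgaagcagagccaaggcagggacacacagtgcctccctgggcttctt
Any 2 of the 4 promoters were 95.3% to 99.3% identical over their aligned bases. Those of Zscan4c and Zscan4f were the closest, with 2 differing bases of 277 aligned. TATAAAA was in all 4, starting at -31 from the annotated start in Zscan4b and Zscan4f, at -54 in Zscan4c and at -65 in Zscan4d. On either strand, 5.48% of the 32851 promoters in the RefSeq table hold it. GATTCAA was also in all 4, starting at -160, -183 or -194, against 2.13% of all promoters. The motifs do not overlap each other. A match is a description of these letters, not of binding.

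Library totals ran from 11934924 to 16916343 counts. Control replicate 1 and ZGW serum replicate 3 stood apart, at opposite ends of a first principal component that held 23.7% of the variance. Their median correlation with the 8 other libraries was 0.795 and 0.786, against 0.818 to 0.855 for the rest, so the main results are also given without them. Libraries of 1 group differed from each other by far more than counting noise (chi-square over its degrees of freedom 50.9 to 136). Markers of the 2-cell stage were abundant and those of cumulus cells scarce. In CPM, read counts scaled to a common library size with TMM factors, 29 other genes transcribed transiently at this stage summed to 13537 to 48331. The 12 cumulus and granulosa cell markers, from the cells around an oocyte, summed to 10.7 to 43.1.

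Zscan4 transcripts were abundant in every library. The 5 copies together held from 20877 to 214701 counts. In control they made up 0.587%, 0.434% and 1.27% of all counts in replicates 1, 2 and 3. Under high glucose these shares were 0.765%, 1.72% and 0.846%, and in ZGW serum libraries 0.597%, 0.452% and 0.175%. The highest library was thus high glucose replicate 2 and the lowest ZGW serum replicate 3. In bulk RNA of pooled embryos, fewer cells with Zscan4 transcripts and fewer transcripts per cell cannot be told apart.

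The order of the libraries was much alike in the 5 copies. Zscan4f was at 1552, 1251 and 3563 CPM in control replicates 1, 2 and 3, at 2355, 5089 and 2420 in high glucose libraries and at 1655, 1212 and 527 in ZGW serum libraries. Zscan4c was at 1500.2, 1095 and 3308 CPM in control, at 2111, 4375 and 2168 in high glucose libraries and at 1396, 947 and 473 in ZGW serum libraries. For these copies every ZGW serum library lay below every high glucose library, while the control libraries overlapped both groups.

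Zscan4d was at 1533, 1049 and 2863 CPM in control, at 1589, 3282 and 2130.1 in high glucose libraries and at 1195, 1001 and 485 in ZGW serum libraries. Zscan4a, the annotated pseudogene, was at 1006, 775 and 2305 CPM in control, at 1526, 2732 and 1449 in high glucose libraries and at 1097, 692 and 296 in ZGW serum libraries. Zscan4b was at 422, 286.5 and 931 CPM in control, at 504, 1051 and 528 in high glucose libraries and at 333, 217 and 75.8 in ZGW serum libraries. Control replicate 3 and high glucose replicate 2 were high, and ZGW serum replicate 3 low, for all 5 copies.

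**Figure D2:**
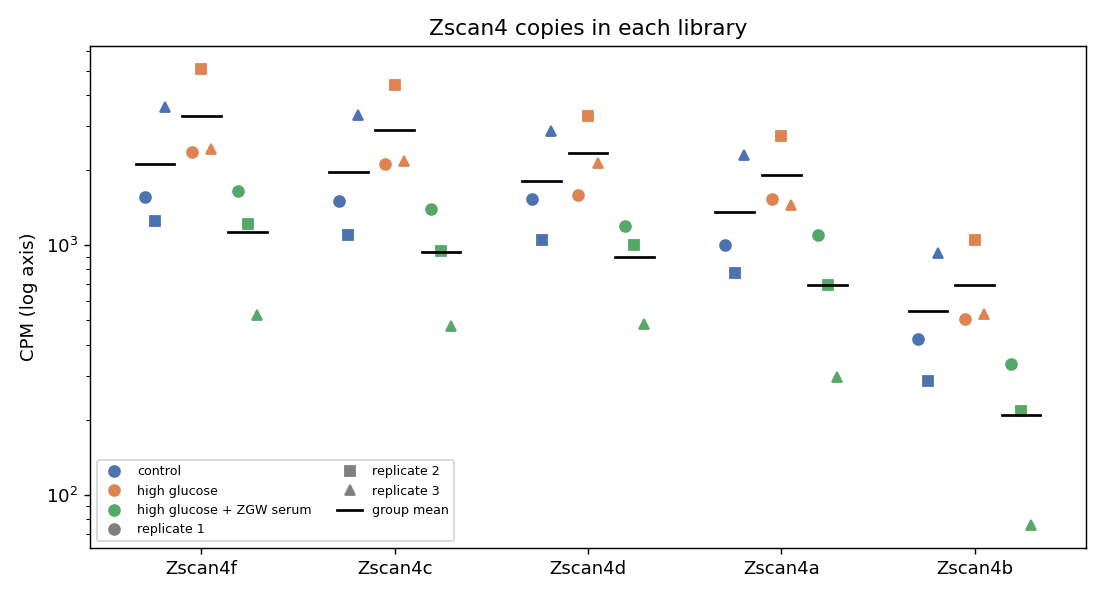
CPM on a log axis for the 5 copies with counts, 1 point per library, with colour for the group, shape for the replicate and a black bar for the mean of 3 libraries. ZGW serum libraries lie below the high glucose libraries for each copy, and control replicate 3 lies with the high glucose libraries; Zscan4f runs from 527 to 5089 CPM.

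The copies varied together from library to library. Across the 9 libraries, the Pearson correlation of log2 CPM between 2 copies ran from 0.98 for Zscan4a with Zscan4d to 1.00 for Zscan4c with Zscan4f. The correlation of a copy with the other 4 summed was 0.97 to 1.00 after subtraction of group means. These correlations are a description over libraries of shared depth, and the copies share sequence. The spread within a group was wide: the sum varied 2.91-fold among the control libraries, 2.04-fold among the high glucose libraries and 3.06-fold among the ZGW serum libraries. The SD of its log2 CPM within groups was 0.74, against a median of 0.56 over 7535 genes whose mean was 10 CPM or more, and 29.3% of those genes varied more. Those genes were not matched to the sum in level, and many have far fewer counts.

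Levels of different copies were compared per kilobase of exon. Zscan4f had the highest mean, 1113 ± 714 CPM per kilobase (SD over 9 libraries), and Zscan4c was at 848 ± 543. Zscan4d was at 740 ± 403, Zscan4a at 579 ± 344 and Zscan4b at 268 ± 178. Zscan4f was above each other copy in 9 of 9 libraries, and Zscan4b below each other copy in 9 of 9. Zscan4c was above Zscan4d in 6 libraries and below it in 3, with ratios per kilobase from 0.945 to 1.33, so those neighbours in the order did not differ beyond their spread. Per 1000 unshared stretches, a scale that applies if only reads unique to a copy were counted, Zscan4b ranked 3 and Zscan4d 5 of the 5 copies. The order of these copies therefore depends on how shared reads were counted. That condition is not known to hold here, since by the globin values above a read can have been counted for several genes. Among 16277 tested genes with a known length, Zscan4f ranked 20 per kilobase in high glucose replicate 2 and 284 in ZGW serum replicate 3.

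The first comparison asks what differed in glucose-loaded embryos once ZGW serum was added. All 5 copies had lower means with ZGW serum, by 2.61-fold for Zscan4d to 3.33-fold for Zscan4b, and in all 5 the groups did not overlap. Groups that do not overlap, with ZGW serum lower, were found in 8.26% of all genes tested. None of the 5 passed edgeR's quasi-likelihood test after Benjamini-Hochberg adjustment over all genes, with adjusted p from 0.465 to 0.512, and 0% of all genes passed. All 5 were under 0.05 before adjustment by edgeR, and so were 8.68% of all genes. Because the copies share reads, these are not 5 independent results. DESeq2 called 241 genes (1.5% of the 16090 it gave an adjusted p) and limma-voom 0 (0%) in this comparison, with 0 of the 5 copies among them. The copies' adjusted p by DESeq2 was 0.0696 to 0.144.

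Zscan4c had a mean of 2884 ± 1291 CPM in high glucose libraries and 939 ± 462 in ZGW serum libraries (SD, n = 3). The fitted log2 fold change was -1.62 ± 0.50 (SE), with a 95% interval from -2.73 to -0.51. Zscan4d, the copy with the least shared sequence, was at 2334 ± 865 CPM in high glucose libraries and 894 ± 367 in ZGW serum libraries, with a log2 fold change of -1.38 ± 0.44. For Zscan4f the log2 fold change was -1.54 ± 0.51, for Zscan4a -1.45 ± 0.52 and for Zscan4b -1.73 ± 0.57. The median of the 5 was -1.54, beside 0.00 over all genes tested. Between 8.82% (Zscan4b) and 15.0% (Zscan4d) of all genes had a larger change in either direction. Summed over the copies, the mean log2 CPM was 13.4 ± 0.57 in high glucose libraries and 11.8 ± 0.83 in ZGW serum libraries (SD, n = 3), a difference of -1.59 that corresponds to 3.00-fold. It was -1.13 without ZGW serum replicate 3, which has the lowest value, and -1.26 without high glucose replicate 2, which has the highest.

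Markers of other cell types were followed as well. Across the groups, the 10 oocyte and zona genes summed to 21659 to 32299 CPM under high glucose, 34208 to 38888 in control and 46886 to 61651 in ZGW serum libraries. Most of that sum is Omt2b, a gene of oocytes, at 22813 ± 5301 CPM in high glucose and 46158 ± 6457 in ZGW serum libraries (SD, n = 3), and 5 of the 10 genes were lower. In the same order of groups Oosp1 was at 2549 ± 230 and 4720 ± 710, Gdf9 at 291 ± 56.9 and 174 ± 39.1, and Zp2 at 85.6 ± 21.6 and 58.0 ± 15.4 CPM. The 8 blood markers summed to 80.9 to 299 CPM in high glucose libraries and 310 to 528 in ZGW serum libraries, 7 trophectoderm markers of later embryos to 204 to 324 and 149 to 257, and the cumulus markers to 10.7 to 18.3 and 12.4 to 19.0. No marker was at 0 in all 9 libraries. Their part in the Zscan4 differences was not tested.

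The second comparison asks what differed after the glucose load itself. All 5 copies had higher means under high glucose, by 1.27-fold for Zscan4b to 1.55-fold for Zscan4f, and in none did the groups separate. Groups that do not overlap, with high glucose higher, were found in 6.84% of all genes. None of the 5 copies passed edgeR's quasi-likelihood test, which passed 0% of all genes, and the copies' adjusted p was 0.829 to 0.929. Before adjustment 0 of the 5 and 7.39% of all genes were under 0.05. DESeq2 called 129 genes (0.818% of 15762) and limma-voom 0 (0%), with none of the copies among them. The median log2 fold change of the copies was 0.48, beside -0.02 over all genes, and the 95% interval for Zscan4c ran from -0.53 to 1.64. The difference of the sum was 0.58 on the log2 scale, 0.25 without high glucose replicate 2, 0.25 without control replicate 2 and 1.02 without control replicate 3. An increase or a decrease of this size cannot be told from the spread between these pools.

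The third comparison sets embryos given both glucose and ZGW serum against the control group. All 5 copies had lower means with ZGW serum, by 1.88-fold for Zscan4f to 2.62-fold for Zscan4b, with overlapping groups in all 5. Groups that do not overlap, with ZGW serum lower, were found in 7.3% of all genes. edgeR's quasi-likelihood test passed 0 of the 5 copies and 0% of all genes, with adjusted p for the copies from 0.472 to 0.586. Before adjustment Zscan4b and Zscan4d were under 0.05 by edgeR, and so were 9.86% of all genes. DESeq2 called 348 genes (2.4% of 14487) and limma-voom 1 (0.00589%), none of them a Zscan4 copy. Their median log2 fold change was -1.02, beside 0.00 over all genes. The difference of the sum was -1.01, but -0.55 without ZGW serum replicate 3 and -0.56 without control replicate 3. The 3 comparisons share libraries, so their values are given side by side and are not independent of each other.

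**Figure D3:**
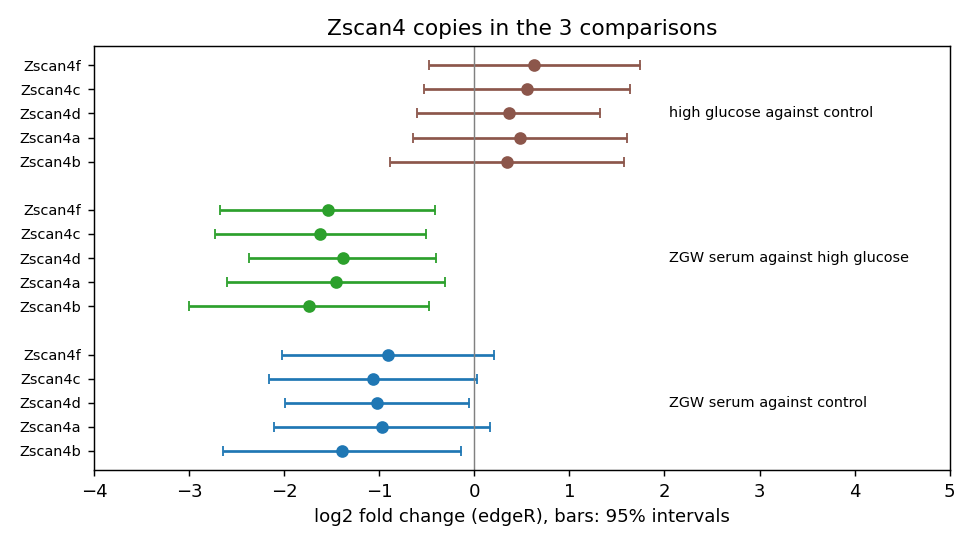
log2 fold changes (points) with 95% intervals (bars) of the 5 copies from the edgeR fit of all genes, for the 3 comparisons. For ZGW serum against high glucose the intervals lie below 0 for all 5 copies before adjustment over genes, from -1.73 for Zscan4b to -1.38 for Zscan4d.

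The shares of the copies in the summed counts were much steadier than the sum. A read can have been counted for several copies, which would hold the shares alike whatever the level of each copy. The part of such reads in these shares was not tested, and the Zscan4b share can also hold reads from Zscan4e. Over the 9 libraries, Zscan4f held 28.5% ± 1.44 of the summed counts (SD), Zscan4c 25.1% ± 0.941, Zscan4d 23.0% ± 2.42, Zscan4a 17.4% ± 1.12 and Zscan4b 6.06% ± 0.928. Zscan4d varied most among the larger shares. It held 25.5%, 23.5% and 22.1% in control, 19.7%, 19.9% and 24.5% in high glucose libraries and 21.1%, 24.6% and 26.1% in ZGW serum libraries, so the groups overlapped. Zscan4b held 7.02%, 6.43% and 7.18% of the summed counts in control. Its share was 6.23%, 6.36% and 6.08% under high glucose, and 5.86%, 5.34% and 4.09% in ZGW serum libraries. For this copy no group overlapped another, with control highest and ZGW serum lowest. Zscan4f held 25.8% to 28.1% in control, 27.8% to 30.8% in high glucose and 28.4% to 29.8% in ZGW serum libraries, so its control and ZGW serum shares did not overlap either. The 95% Wilson interval of the lowest share ran from 3.83% to 4.36%. These intervals cover counting error only, and reads without molecular identifiers are not independent molecules. These patterns were picked out after the shares were seen and have no test.

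**Figure D4:**
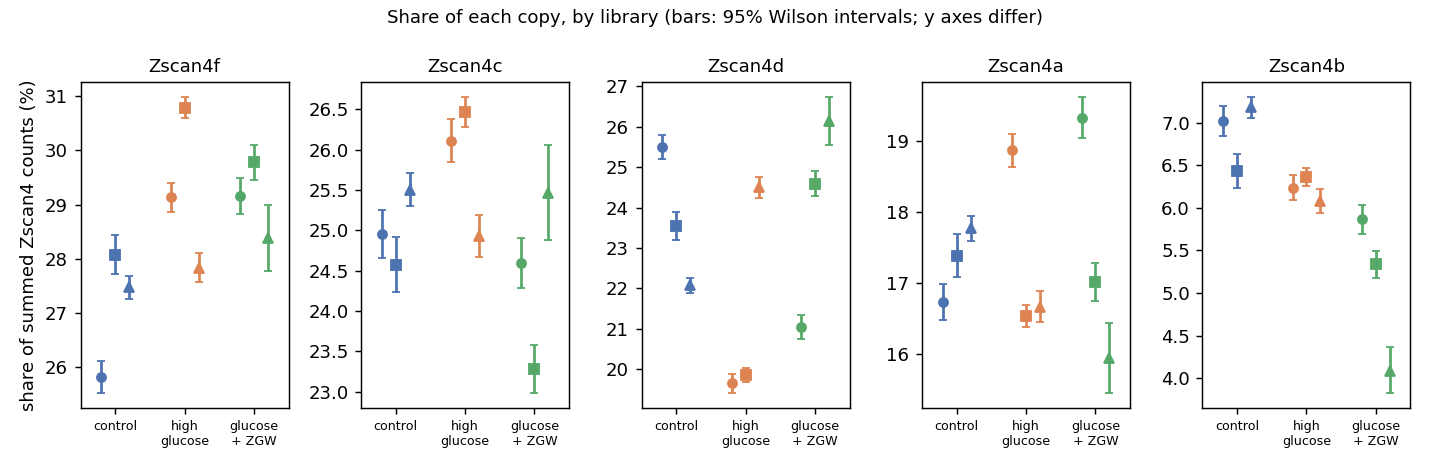
Percent of the summed Zscan4 counts held by each copy in each library, by group, with 95% Wilson intervals; each panel has its own y axis that does not start at 0. Zscan4b steps down from 6.43% to 7.18% in control to 4.09% to 5.86% in ZGW serum libraries, and Zscan4f lies lower in control (25.8% to 28.1%) than in ZGW serum libraries (28.4% to 29.8%).

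Genes listed here as activators of Zscan4 varied in how closely they followed it. Whether each of them activates Zscan4 in these embryos was not tested. Of 10 listed activators, 10 had lower fitted levels with ZGW serum than in high glucose, with a median log2 fold change of -0.67 against 0.00 over all genes. In high glucose against control 7 were higher and 3 lower, and in ZGW serum against control 8 were lower and 2 higher. The direction in high glucose against control depended on the tool, since limma-voom put 6 of the 10 lower, with a median of -0.06 against 0.09 by edgeR. Without control replicate 1 and ZGW serum replicate 3, 10 of 10 were lower with ZGW serum than in high glucose, with a median of -0.55. None passed by edgeR in any comparison. Before adjustment 2 were under 0.05 by edgeR for ZGW serum against high glucose (8.68% of all genes). In high glucose against control 0 were (7.39% of all genes), and in ZGW serum against control 2 (9.86%). DESeq2 called only Dppa4, in ZGW serum against control, where it called 2.4% of all genes. Dux, whose protein binds and activates Zscan4 promoters, was at 10.9, 33.0 and 14.1 CPM in control, at 58.5, 20.9 and 42.0 in high glucose libraries and at 26.4, 24.0 and 42.9 in ZGW serum libraries. Its groups overlapped, and its correlation with the Zscan4 sum over the 9 libraries, -0.32, was the lowest of the 10 listed genes. Their median was 0.45 and the highest 0.79, with Dppa4 at 0.72, Duxbl1 at 0.61 and Dppa2 at 0.14. Dppa4, which acts with Dppa2 upstream of Dux, was at 46.7, 110.6 and 91.8 CPM in control, at 49.3, 52.2 and 50.004 in high glucose libraries and at 34.8, 25.6 and 4.98 in ZGW serum libraries. Every ZGW serum library was below all the others for Dppa4, with a log2 fold change of -1.21 ± 0.58 (SE) against high glucose and an edgeR adjusted p of 0.592. Dppa2 had means of 155 ± 78.6 CPM in control, 139 ± 58.1 in high glucose libraries and 82.1 ± 24.6 in ZGW serum libraries (SD, n = 3). Duxbl1, a Dux-like gene, was at 106 ± 27.0 CPM in high glucose libraries and 45.4 ± 17.8 in ZGW serum libraries, and Nelfa, a subunit of the elongation factor NELF, at 56.3 ± 30.7 and 25.9 ± 10.5. Of the stretches of these genes, 93.5% in Duxbl1, 31.3% in Dppa4 and 29.1% in Dppa2 occur in other genes.

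**Figure D5:**
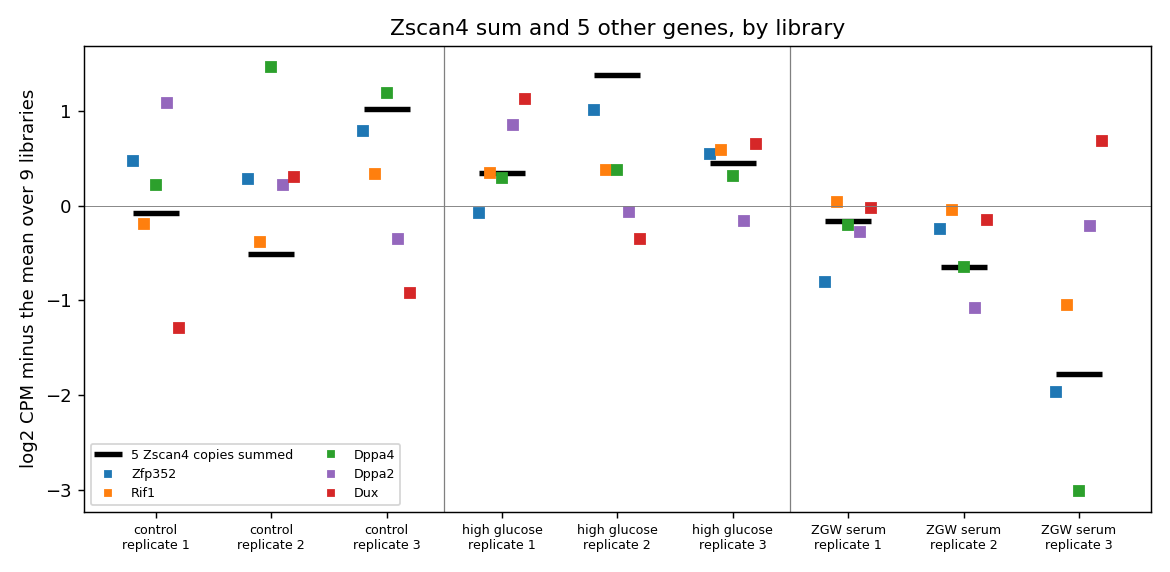
log2 CPM minus each gene's mean over the 9 libraries, for the 5 Zscan4 copies summed (black bars) and for Zfp352, Rif1, Dppa4, Dppa2 and Dux (coloured squares), by library. Zfp352 and Rif1 follow the Zscan4 bar only in part (correlations 0.86 and 0.88), with Rif1 over a narrower range. Dux is above its mean in ZGW serum replicate 3, where Zscan4 is lowest.

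Most repressors and telomere factors had lower fitted levels with ZGW serum than in high glucose, and 0 passed by edgeR. Of 25 listed repressors of the 2-cell programme, 21 were lower with ZGW serum than with high glucose alone, at a median log2 fold change of -0.44. Of the 25, 2 were under 0.05 before adjustment, a share close to the 8.68% of all genes. Without the 2 libraries that stood apart, 20 of 25 were lower, with a median of -0.41. In high glucose against control 14 were higher and 11 lower, and in ZGW serum against control 17 were lower and 8 higher. DESeq2 called only Cbx3 of the 25, in both comparisons with ZGW serum, and limma-voom none. Of all genes, DESeq2 called 1.5% for ZGW serum against high glucose and 2.4% for ZGW serum against control. The 4 of lowest p-value were Cbx3, a heterochromatin protein, at 232 ± 74.0 CPM in high glucose libraries and 89.9 ± 36.8 in ZGW serum libraries, Rif1, the RNA-binding protein Lin28a, at 52.2 ± 10.2 and 32.1 ± 7.02, and the Polycomb subunit Pcgf6, at 274 ± 89.2 and 174 ± 75.5 (SD, n = 3). Rif1, a telomere-associated factor known to silence Zscan4, was at 332, 291 and 480 CPM in control, at 483, 492 and 573 in high glucose libraries and at 392, 368 and 184 in ZGW serum libraries. It was lower in every ZGW serum library than in any high glucose library, and its correlation with the Zscan4 sum, 0.88, was the highest in both lists that hold it. Over the 25 repressors the correlation ran from -0.53 to 0.88, with a median of 0.19, and over the telomere factors from -0.48 to 0.88, with a median of 0.32. Of 15 tested telomere factors, a list that also holds Rif1, 11 were lower, with a median of -0.58, and 0 were called by DESeq2 or limma-voom. Before adjustment 5 of the 15 were under 0.05, beside 8.68% of all genes. Without the 2 libraries that stood apart 15 of 17 were lower at a median of -0.63, and only 2 of 17 were under 0.05. In that smaller fit 1391 of all genes were under 0.05, against 1473 (8.68%) in the fit of all 9 libraries. How many genes the smaller fit tested is not given here, so its share is not known. In high glucose against control 13 were higher and 2 lower, and in ZGW serum against control 7 were lower and 8 higher, or 10 of 17 lower without those libraries. Atrx, a chromatin remodeller of telomeres, was at 182 ± 34.1 and 86.6 ± 22.9 CPM, and Acd, the shelterin protein TPP1, at 144 ± 31.8 and 65.6 ± 35.1 (SD, n = 3). The meiotic recombinase Dmc1 was at 4.4 ± 3.06 and 1.09 ± 0.336 CPM.

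Most other genes of the transient 2-cell programme had lower fitted levels with ZGW serum than in either other group. Of 29 tested, 27 were lower with ZGW serum than with high glucose alone, with a median log2 fold change of -0.74 and 0 passing by edgeR, while 11 were under 0.05 before adjustment, beside 8.68% of all genes. Without control replicate 1 and ZGW serum replicate 3, 23 of 29 were lower, with a median of -0.51, and 8 were under 0.05. In that smaller fit 1391 of all genes were under 0.05, against 1473 (8.68%) in the fit of all 9 libraries. Against control the median of the list went from -0.74 to -0.32 without those 2 libraries. In high glucose against control 22 were higher and 7 lower, and in ZGW serum against control 22 were lower and 7 higher. For ZGW serum against high glucose, the groups did not overlap in 14 of the 29, with ZGW serum lower, beside 8.26% of all genes. Zscan4 copies had a median of -1.54 in the same comparison. Several genes of the list belong to families that share sequence, so these are not 29 independent results. Of the stretches of Usp17ld 51.1%, of Usp17lc 44.7% and of Usp17le 29.8% occur in other genes, against 3.4% of those of Ubtfl1. The deubiquitinase genes Usp17le, Usp17lc and Usp17ld, which exist in many copies, and the UBTF relative Ubtfl1 had the lowest p-values. Their log2 fold changes were -3.08 ± 0.58, -2.04 ± 0.39, -2.50 ± 0.54 and -1.51 ± 0.36 (SE), in that order, and DESeq2 called these 4 genes of the list, beside 1.5% of the genes it gave an adjusted p. Zfp352, a zinc finger gene among the 4 of lowest p-value for ZGW serum against control, was at 182, 159 and 226 CPM in control, at 124, 264 and 191 in high glucose libraries and at 74.8, 111 and 33.3 in ZGW serum libraries, and its correlation with the Zscan4 sum was 0.86. That is near the top of the list: Ubtfl1 was at 0.57, Tcstv3 at 0.56, Usp17lc at 0.54 and Tcstv1 at 0.34. Over the 29 genes the correlation with the Zscan4 sum ran from -0.45 to 0.90, with a median of 0.60, so genes of this programme did not all follow Zscan4.

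Other SCAN zinc finger genes, which encode the same kind of protein, were mixed in direction. Of 20 tested, 9 were lower and 11 higher with ZGW serum than with high glucose alone, at a median log2 fold change of 0.13. By edgeR 0 passed, and 2 were under 0.05 before adjustment, a share close to the 8.68% of all genes. By limma-voom 10 of 20 were lower, with a median of -0.03. Without the 2 libraries that stood apart 8 of 21 were lower, with a median of 0.17 and 5 under 0.05. In that smaller fit 1391 of all genes were under 0.05, against 1473 (8.68%) in the fit of all 9 libraries. In high glucose against control 11 were lower and 9 higher, and in ZGW serum against control 7 were lower and 13 higher. The lowest p-values belonged to genes with few reads. DESeq2 called only Zscan26, for ZGW serum against high glucose (1.5% of all genes called) and for high glucose against control (0.818%). It was at 0.154 ± 0.129 CPM in high glucose and 2.62 ± 1.32 in ZGW serum libraries, and Zkscan16 was at 3.18 ± 2.80 and 0.142 ± 0.134 (SD, n = 3). Zkscan2 was at 0.128 ± 0.222 and 2.57 ± 3.24 CPM, and Zkscan3 at 0.496 ± 0.424 and 0.109 ± 0.0440.

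The genes whose pattern was most like the Zscan4 sum were taken by the Pearson correlation of log2 CPM over 9 libraries, among 6897 genes whose mean was 10 CPM or more, leaving out the Zscan4 copies and predicted or clone-like symbols. Nptx2, a secreted pentraxin, came first at 0.95, and ran from 3.47 to 20.1 CPM. Rex2 was at 0.93, Smarca5-ps and the zinc finger gene Zfp600 at 0.92, and Lrif1, Ltv1, Cyb5r4, Tdpoz5 and Lrba at 0.90. Of these, Tdpoz5 belongs to the transient 2-cell list. Counts of Rex2 and Zfp600 are uncertain, because 89.1% and 81.2% of their stretches occur in other genes, as are those of Smarca5-ps (62.3%) and of Tdpoz5, all of whose stretches do. The median correlation over all 6897 genes was 0.06, and 1.51% were above 0.8. Without control replicate 1 and ZGW serum replicate 3, the correlations of these 9 genes were 0.78 for Lrba to 0.91 for Nptx2 over 7 libraries. None of the 9 was then among the 10 highest: Nptx2 ranked 20 and Lrba 193, so the ranking rests on those libraries.

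The nearest genes on either side of the array had few reads. Vmn1r71, a pheromone receptor gene 39.9 kilobases before the first copy, had 28 counts over all 9 libraries, and Vmn1r72, 50.4 kilobases after the last, had 22. The Zscan4 copies had from 58304 (Zscan4b) to 263375 (Zscan4f) counts over the same libraries. Nlrp4b, 64.1 kilobases before the array, was at 6.79 to 37.0 CPM. Mir297-1, named here after its values were seen, is the only other symbol of the table placed inside the array, with 203 counts in all.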

How the data were processed

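RNA was sequenced from 9 libraries, which the labels place in 3 groups of 3. Values are raw counts, 1 whole number per gene and library, as the authors deposited them. Per the submitters' processing notes, Trim Galore and the mm10 assembly were used. Not given in the sources used here are the aligner, counter, annotation, strand setting and treatment of multi-mapped reads. The listed copies, the gene lists and the alternatives were chosen with earlier results of these data known.

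Counts were fitted with edgeR 4.0.16 (quasi-likelihood, TMM factors, minimum count 10, robust, 1 mean per group, R 4.3.3) over 16964 genes, with Benjamini-Hochberg adjustment and a threshold of 0.05. The fit was tested on simulated data. The sum of the copies, as log2 CPM (prior count 2), gets no test. Lengths, positions and 50-base stretches came from GENCODE M21, and alignments were made with MAFFT 7.526. All copies are named. Of each pathway list and the oocyte list the 4 members of lowest p-value for ZGW serum against high glucose are given, with Dux, Dppa2 and Dppa4 and, from ZGW serum against control, Zfp352. Other marker lists are given as sums, and likeness takes the 10 highest correlations outside predicted symbols, of which 1 is not reported here. Alternatives were RLE factors, DESeq2 1.42.0, limma-voom (limma 3.58.1), other count filters, fits of 2 groups, the replicate number as a block, another prior count and scale, and leaving out libraries.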

Additional observations from a re-analysis of the deposited data

How the results depend on the processing

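Over 17 alternative fits of each comparison, the log2 fold changes of the 5 copies gave 85 values. For ZGW serum against high glucose all 85 kept their direction, from -2.25 to -1.06, and for ZGW serum against control all 85 did, from -1.90 to -0.34. None of these passed, with adjusted p from 0.0696 to 0.851 and from 0.168 to 0.827. For high glucose against control 84 of 85 kept their direction, with adjusted p from 0.522 to 1.00; Zscan4b ran from -0.11 without high glucose replicate 2 to 0.94 without control replicate 3. The number of genes called, 0 in each comparison by edgeR, was 129, 241 and 348 by DESeq2 for high glucose against control, ZGW serum against high glucose and ZGW serum against control. For the last it was 1 by limma-voom, with no filter and with at least 10 counts in 6 libraries. The sum of the copies moved by less than its spread within groups under each scale, prior count and left-out library, and Zscan4d alone gave -1.42 for ZGW serum against high glucose. Without control replicate 1 and ZGW serum replicate 3 the sum differed by 0.47, -1.13 and -0.66. Same-numbered libraries deviated together by over 0.1 in 1 of 9 pairs, with correlations from -0.03 to 0.17, so the numbers were not taken as pairs. With the replicate block 0 genes were called in each comparison, and Zscan4c had log2 fold changes of 0.53, -1.61 and -1.09. For the 9 genes named as most alike, rank correlations were 0.77 to 0.97. With 3 libraries a group, the spread between pools, rather than depth, sets these intervals.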

Other observations

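Among the genes with the opposite pattern to Zscan4, named after their values were seen, Oosp3 had the lowest correlation with the Zscan4 sum over the 9 libraries, -0.95, and B3gnt4 and Smim11 had -0.94 and -0.93. Without control replicate 1 and ZGW serum replicate 3 these were -0.90, -0.91 and -0.87, at ranks 6883, 6884 and 6864 of 6897 genes, so none stayed lowest. Counts of B3gnt4 are uncertain, because 89.6% of its stretches occur in other genes. Oosp3, a gene of the oocyte-secreted protein family, had means of 4110 CPM in control, 3227 in high glucose and 6294 in ZGW serum libraries. After subtraction of group means its correlation was -0.90, so the opposition was also present among libraries of a group. These are descriptions over 9 libraries that share depth and RNA pools, with no test.

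The ratio of Zscan4b to Zscan4c counts within a library, which does not depend on library size, was 0.281, 0.262 and 0.281 in control. High glucose libraries had 0.239, 0.24 and 0.244, and ZGW serum libraries 0.238, 0.229 and 0.160. The ratio of Zscan4f to Zscan4c ran from 1.03 to 1.28 over the 9 libraries, with overlapping groups. Both ratios carry the same limits from shared reads as the shares of the copies.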
